A study of Mus musculus with 10 samples.

Results

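Bile acid synthesis and transport in the liver was followed here through 9 genes, chosen by name: the 4 hydroxylases Cyp7a1, Cyp7b1, Cyp8b1 and Cyp27a1, the reductase Akr1d1, the conjugating enzymes Slc27a5 and Baat, and the transporters Slc10a1 and Abcb11. All 9 were found among the 54532 genes of the expression table, and all 9 passed the filter on low values together with 13261 genes in all. The rule uses no measured value, but the genes were chosen with earlier results of these data known. Expression was measured by bulk poly-A RNA sequencing in whole liver from 10 mice on a C57BL/6J background, 5 ASK1f/f and 5 ASK1+hep. Both groups carried a conditional construct in the ROSA26 locus, in which a stop cassette flanked by lox sites precedes the cDNA of murine ASK1, a stress-activated kinase encoded by Map3k5. In ASK1+hep mice, Cre recombinase under the albumin promoter removes that cassette in hepatocytes, whereas ASK1f/f littermates lack Cre and served as controls. High fat diet (HFD) was given to both groups from 6 weeks of age for 7 weeks, and livers were collected after a 5 h fast. The comparison addresses how more ASK1 in hepatocytes alters liver expression on HFD. The samples came from separate mice, so the spread between them includes differences between animals.

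Hepatocytes make bile acids from cholesterol. In the classic route CYP7A1 takes the first and rate-limiting step, in the alternative route CYP27A1 and CYP7B1 act first, and CYP8B1 adds the hydroxyl group that directs synthesis towards cholic acid. Finished bile acids are coupled to an amino acid, exported into the bile canaliculus and taken up again from portal blood, and their return to the liver lowers further synthesis through the nuclear receptors FXR and SHP and through the FGF15 receptor complex.

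In these livers none of the 9 genes passed the test between the genotypes after adjustment for all genes tested. The largest shifts were a higher mean of Cyp8b1 and a lower mean of Akr1d1 in ASK1+hep livers, and Cyp7a1 varied 4.88-fold between single livers with nearly equal group means. Differences are log2 fold changes of FPKM + 1, ASK1+hep over ASK1f/f, and p-values are from limma with Benjamini-Hochberg adjustment. FPKM counts fragments per kilobase of gene length, scaled to a size set for each library. The size implied by the deposited values was 0.89 (ASK1+hep replicate 3) to 1.0625 (ASK1f/f replicate 1) times the reads on genes. At an adjusted p at or below 0.05, 0 of the 9 genes were called, against a background of 0% of all 13261 genes (0 genes). At an unadjusted p under 0.05 there were 2 of the 9, against 5.77% of all genes (765 genes). One direction at a time, 1 of the 9 was higher in ASK1+hep, against 3.05% of all genes, and 1 was lower, against 2.71%. The values of the 2 groups overlapped for each of the 9 genes, while 0.86% of all genes had groups that did not overlap. By sign alone 3 of the 9 had a positive and 6 a negative log2 fold change, beside 6374 and 6887 of all 13261 genes. The median of the 9 was -0.21, beside a median of -0.0065 over all genes tested. Without ASK1+hep replicate 3, described next, the median of the 9 was -0.10.

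Between 13367742 and 16163378 reads per library lay on genes. ASK1+hep replicate 3 stood apart from the rest: the median correlation of its profile with the other livers was 0.961, against 0.981 to 0.985 in the other 9 libraries, and 10.9% of its reads came from mitochondrial genes, against 4.19 to 6.74%. Map3k5 itself was at 6.74, 6.88, 5.77, 4.71 and 19.8 FPKM in the 5 ASK1f/f livers (replicates 1 to 5) and at 16.4, 11.1, 7.68, 12.4 and 15.2 FPKM in ASK1+hep replicates 1 to 5. The highest value of all thus stood in the library labelled ASK1f/f replicate 5, while the other 4 controls lay below all 5 ASK1+hep livers. Fgf21, measured in the same table, was at 2.46 to 4.74 FPKM in the controls, the library labelled ASK1f/f replicate 5 included at 3.21, and at 7.40 to 30.1 FPKM in ASK1+hep. Its log2 fold change was 2.06, with the lowest unadjusted p of all genes tested (limma, unadjusted p = 3.77e-05). Even so it was not called (limma, adjusted p = 0.349). The study itself tested with DESeq2, a different method, and reported Fgf21 as highly upregulated in ASK1+hep livers. The absence of a call here therefore does not show that a gene is unchanged. Hepatocyte markers such as Alb and Apoa1 summed to between 31600 and 43100 FPKM in the controls and to between 36700 and 48400 FPKM in ASK1+hep. By sign 3 of the 6 were higher and 3 lower in ASK1+hep. Ttr alone had an unadjusted p under 0.05 (log2 fold change 0.52, limma, unadjusted p = 0.0469), and Fgb was the lowest by log2 fold change, at -0.45. The labels give no sex, and in all 10 livers Xist was at 0.0129 FPKM at most and Ddx3y at 6.02 FPKM or more. In bulk liver, fewer cells of a type and less RNA per cell cannot be told apart.

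Cyp8b1, the sterol 12-alpha-hydroxylase, and Akr1d1, the 5-beta-reductase that sets the bent ring shape of bile acids, gave the 2 unadjusted p-values under 0.05, so the sequence before their start sites is shown. RefSeq promoter entries on GRCm38.p6 were matched for 5 of the 9 genes (Cyp27a1, Abcb11, Akr1d1, Cyp8b1 and Slc10a1). The 250 bases before the start are printed on the strand of the gene, 5′ to 3′, at chr9:121916306-121916555 on the minus strand for Cyp8b1 and at chr6:37529923-37530172 on the plus strand for Akr1d1. Capitals mark every match on either strand to 5 short motifs. These are the promoter element TATAAA, the core TCAAGG of sites bound by the nuclear receptor LRH-1, the nuclear receptor hexamer AGGTCA, the partial HNF1 site GTTAAT and the promoter element CCAAT.
Cyp8b1 promoter: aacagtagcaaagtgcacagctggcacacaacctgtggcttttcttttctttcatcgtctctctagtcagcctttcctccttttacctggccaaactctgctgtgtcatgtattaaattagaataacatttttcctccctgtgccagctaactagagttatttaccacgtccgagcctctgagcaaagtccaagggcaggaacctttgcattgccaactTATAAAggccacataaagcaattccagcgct
Akr1d1 promoter: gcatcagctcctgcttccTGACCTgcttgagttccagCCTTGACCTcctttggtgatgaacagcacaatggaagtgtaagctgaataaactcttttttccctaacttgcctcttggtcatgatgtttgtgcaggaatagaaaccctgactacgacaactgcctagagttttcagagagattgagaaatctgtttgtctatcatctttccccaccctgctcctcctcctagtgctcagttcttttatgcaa
The Cyp8b1 stretch held 1 match, TATAAA on the strand of the gene, with its first base at position -31 from the start. In the Akr1d1 stretch all matches were on the opposite strand: AGGTCA with its leftmost base at positions -232 and -210, and TCAAGG at position -213, where it shares bases with the AGGTCA at -210 in a single capital run. Of 32851 mouse promoter entries, from 250 bases before to 50 after the start, 13.6% held TATAAA, 14.4% TCAAGG, 16.3% AGGTCA, 7.1% GTTAAT and 37.4% CCAAT. The letters GTTAAT were in none of the entries of the 5 matched genes. A match is a description of the letters and not a bound site.

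**Figure D1:**
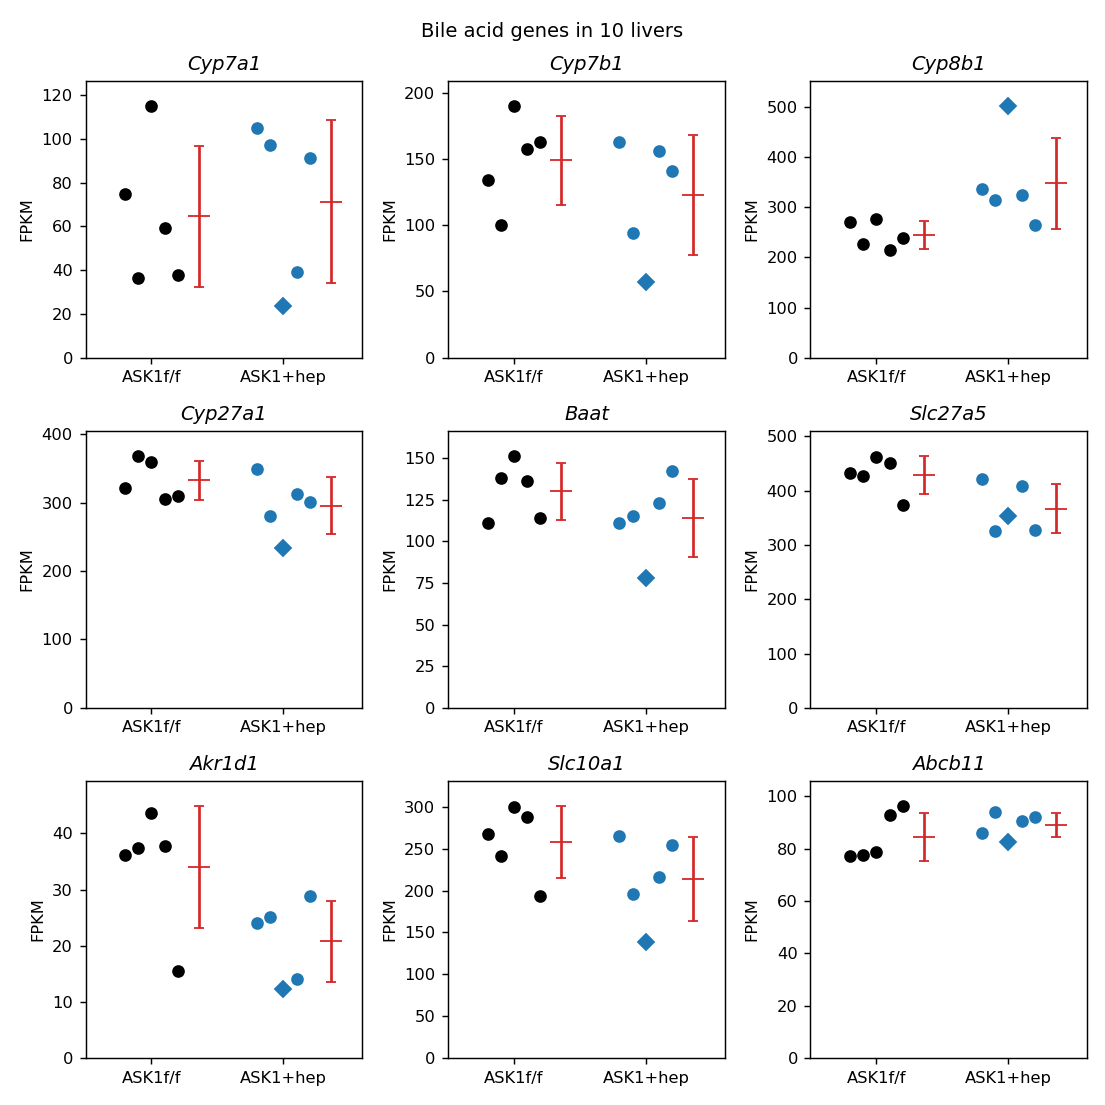
FPKM (vertical axis, from 0) of the 9 bile acid genes in the 5 ASK1f/f (black) and 5 ASK1+hep (blue) livers, 1 point per liver in the order of replicates 1 to 5, with ASK1+hep replicate 3 as a diamond and the group mean ± SD in red. Cyp8b1 lies at 214 to 277 FPKM in ASK1f/f and 264 to 502 in ASK1+hep, and the groups overlap in all 9 panels.

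Of the hydroxylases, Cyp7a1 (ENSMUSG00000028240, GRCm38 chr4:6265612-6275633, minus strand, 6 exons) was at 75.0, 36.2, 115, 59.4 and 37.6 FPKM in ASK1f/f replicates 1 to 5. In ASK1+hep replicates 1 to 5 it was at 105, 97.2, 23.5, 39.2 and 91.5 FPKM. Each group thus held livers near the top and near the bottom of the range, and the lowest value, in ASK1+hep replicate 3, rested on 1353 reads. The means were 64.6 ± 32.4 (SD, n = 5) and 71.3 ± 37.2 FPKM (SD, n = 5), a log2 fold change of 0.06 with a standard error of 0.44. Its 95% interval, before any adjustment, ran from -0.90 to 1.02 (adjusted p = 0.979 by limma; exact two-sided permutation p = 0.913). Differences of up to about that size in either direction thus remained compatible with these 10 livers. The coefficient of variation was 50.1% in ASK1f/f and 52.2% in ASK1+hep. Its sign was not stable: the log2 fold change was 0.40 without ASK1+hep replicate 3, and it turned negative, between -0.13 and -0.08, without ASK1f/f replicate 2, the library labelled ASK1f/f replicate 5, or ASK1+hep replicate 1, 2 or 5.

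Cyp8b1 (ENSMUSG00000050445, chr9:121914356-121916305, minus strand) has a single exon. It was at 270, 226, 277, 214 and 239 FPKM in the 5 ASK1f/f livers (replicates 1 to 5) and at 337, 314, 502, 324 and 264 FPKM in ASK1+hep replicates 1 to 5. All 5 ASK1+hep livers lay above the control median, and the groups overlapped through ASK1+hep replicate 5, which was below 2 of the controls. Mean levels were 245 ± 27.3 (SD, n = 5) and 348 ± 90.6 FPKM (SD, n = 5), a ratio of 1.42. The log2 fold change was 0.48 with a standard error of 0.17 and a 95% interval from 0.10 to 0.85, before any adjustment. It did not pass the adjustment for all genes (limma, unadjusted p = 0.0166, adjusted p = 0.813), and the exact two-sided permutation p for this gene alone was 0.0238. The top value, 502 FPKM, was that of ASK1+hep replicate 3, and without this library the log2 fold change was 0.34 (limma, unadjusted p = 0.0191). Among the 8 livers whose sample titles begin with CC it was 0.52 (limma, unadjusted p = 0.0346), and the 2 livers with titles beginning with SN, 1 of each genotype, were too few for a value of their own.

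Cyp27a1, the mitochondrial sterol 27-hydroxylase (ENSMUSG00000026170, chr1:74713574-74737892, plus strand, 9 exons), was at 322, 368, 359, 306 and 310 FPKM in ASK1f/f replicates 1 to 5. ASK1+hep replicates 1 to 5 were at 349, 281, 234, 313 and 301 FPKM. The spread was narrow in both groups, and 4 of 5 ASK1+hep livers were below the control median. Group means of 333 ± 28.6 and 296 ± 42.2 FPKM (SD, n = 5 each) gave a log2 fold change of -0.18 with a standard error of 0.13 (limma, adjusted p = 0.816; exact two-sided permutation p = 0.119). Without ASK1+hep replicate 3, the lowest of the 10 livers, the log2 fold change was -0.10.

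Cyp7b1, the oxysterol 7-alpha-hydroxylase of the alternative route (ENSMUSG00000039519, chr3:18071950-18243338, minus strand, 6 exons), was at 134, 100, 190, 158 and 163 FPKM in ASK1f/f replicates 1 to 5. Its levels in ASK1+hep replicates 1 to 5 were 163, 94.4, 57.5, 156 and 141 FPKM. ASK1+hep replicate 3 was the lowest, ASK1+hep replicate 2 also lay below every control, and the rest were within the control range. In ASK1+hep, 4 of 5 livers were below the control median. The means were 149 ± 33.9 and 123 ± 45.2 FPKM (SD, n = 5 each), a log2 fold change of -0.35 with a standard error of 0.28 (limma, adjusted p = 0.818; exact two-sided permutation p = 0.317). Leaving out ASK1+hep replicate 3 brought the log2 fold change to -0.10. A small nuclear RNA gene, Gm23686, lies within the span of Cyp7b1 on the same strand.

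Akr1d1 (ENSMUSG00000038641, chr6:37530173-37568815, plus strand, 9 exons) had the lowest level of the 9 genes, resting on 490 to 1885 reads per liver. It was at 36.1, 37.4, 43.6, 37.7 and 15.5 FPKM in the 5 ASK1f/f livers (replicates 1 to 5) and at 24.0, 25.1, 12.3, 14.1 and 28.8 FPKM in ASK1+hep replicates 1 to 5. Among the controls, 4 lay above every ASK1+hep liver, and the exception was the library labelled ASK1f/f replicate 5, which was below 3 of them. The means of 34.0 ± 10.8 and 20.8 ± 7.24 FPKM (SD, n = 5 each) stood in a ratio of 0.612. Its log2 fold change was -0.68 with a standard error of 0.30 and a 95% interval from -1.32 to -0.03 (limma, unadjusted p = 0.0424, adjusted p = 0.813), and the exact two-sided permutation p was 0.119. The unadjusted call turned on single libraries: the log2 fold change was -0.51 without ASK1+hep replicate 3 (limma, unadjusted p = 0.102) and -0.93 without the library labelled ASK1f/f replicate 5 (limma, unadjusted p = 0.00229). The unadjusted p was also above 0.05, at 0.0789 to 0.102, without ASK1f/f replicate 1, 2, 3 or 4 or ASK1+hep replicate 4. Within the 8 livers with titles beginning with CC it was -0.70 (limma, unadjusted p = 0.078), and the unadjusted p was also above 0.05 without the filter on low values (0.0562) and with the replicate number as a block (0.0767). A processed pseudogene, Gm7463, lies within Akr1d1 on the same strand.

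Slc27a5 and Baat act in turn at the end of synthesis: the first encodes the ligase that joins a bile acid to coenzyme A, and the second the transferase that couples it to taurine or glycine. Slc27a5 (ENSMUSG00000030382, chr7:12988346-12998192, minus strand, 10 exons) was at 432, 427, 463, 451 and 373 FPKM in ASK1f/f replicates 1 to 5. The ASK1+hep replicates 1 to 5 were at 422, 326, 354, 409 and 327 FPKM. All 5 ASK1+hep livers were below the control median, yet 2 of them were above the library labelled ASK1f/f replicate 5. The means were 429 ± 34.4 and 367 ± 45.5 FPKM (SD, n = 5 each), a log2 fold change of -0.23 with a standard error of 0.13. It was not called (limma, unadjusted p = 0.103, adjusted p = 0.813), and the exact two-sided permutation p for the gene alone was 0.0476. With levels scaled by all reads of a library its log2 fold change was -0.31 (limma, unadjusted p = 0.0442, adjusted p = 0.75).

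Baat (ENSMUSG00000039653, chr4:49489422-49506557, minus strand, 4 exons) was at 111, 138, 151, 136 and 114 FPKM in ASK1f/f replicates 1 to 5. In ASK1+hep replicates 1 to 5 the levels were 111, 115, 78.0, 123 and 142 FPKM. Apart from ASK1+hep replicate 3, which was the lowest of all 10, the groups covered nearly the same range. Means of 130 ± 17.0 and 114 ± 23.4 FPKM (SD, n = 5 each) gave a log2 fold change of -0.21 with a standard error of 0.16 (limma, adjusted p = 0.816; exact two-sided permutation p = 0.294). Without ASK1+hep replicate 3 the log2 fold change was -0.08.

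On the transport side, Slc10a1 encodes NTCP, which brings conjugated bile acids from blood into the hepatocyte, and Abcb11 encodes BSEP, the canalicular export pump. Slc10a1 (ENSMUSG00000021135, chr12:80953183-80968705, minus strand, 6 exons) was at 267, 241, 300, 288 and 194 FPKM in ASK1f/f replicates 1 to 5. ASK1+hep replicates 1 to 5 stood at 265, 196, 139, 216 and 254 FPKM. All 5 were below the control median and 4 of them were above the lowest control, the library labelled ASK1f/f replicate 5. The means were 258 ± 42.5 and 214 ± 50.5 FPKM (SD, n = 5 each), a log2 fold change of -0.29 with a standard error of 0.19 (limma, adjusted p = 0.813; exact two-sided permutation p = 0.19). Without ASK1+hep replicate 3 the log2 fold change was -0.14, and without the library labelled ASK1f/f replicate 5 it was -0.39.

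Abcb11 (ENSMUSG00000027048, chr2:69238282-69342616, minus strand, 28 exons) was at 77.3, 77.7, 78.7, 92.9 and 96.1 FPKM in ASK1f/f replicates 1 to 5. It was at 86.0, 94.0, 82.5, 90.4 and 92.0 FPKM in ASK1+hep replicates 1 to 5. All 5 were within the range of the controls and above the control median of 78.7 FPKM. Of the 9 genes it varied least, 1.24-fold between the lowest and the highest liver, with a coefficient of variation of 10.8% in ASK1f/f and 5.25% in ASK1+hep. The means of 84.5 ± 9.16 and 89.0 ± 4.67 FPKM (SD, n = 5 each) gave a log2 fold change of 0.08 with a standard error of 0.10 and a 95% interval from -0.15 to 0.31 (limma, adjusted p = 0.869; exact two-sided permutation p = 0.317). With levels scaled by all reads of a library this difference all but vanished, at -8.17e-06. An antisense gene, Gm13613, and a pseudogene, Gm13614, overlap Abcb11 on the other strand, and whether counting used strand is not given in the sources used here.

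**Figure D2:**
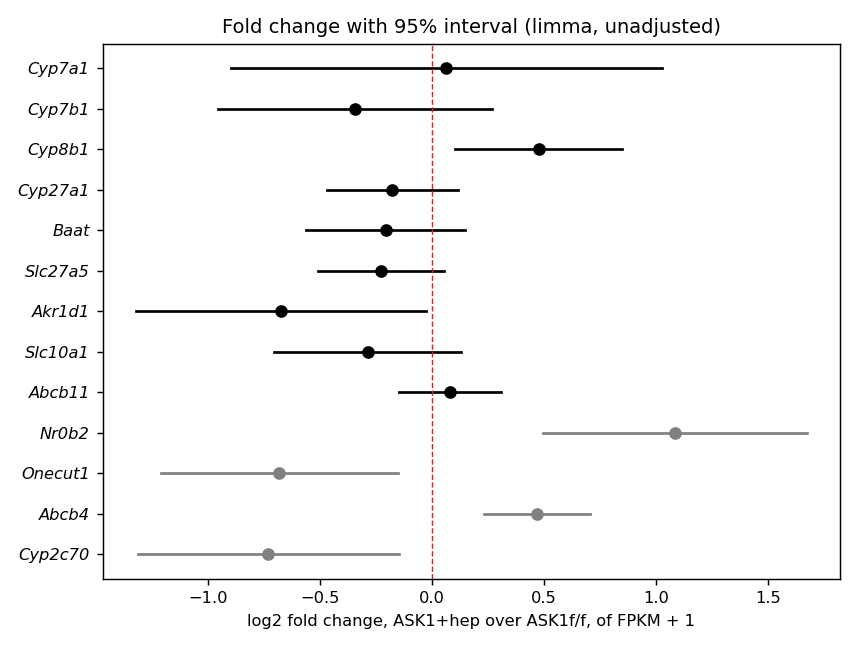
Log2 fold change of FPKM + 1, ASK1+hep over ASK1f/f (horizontal axis), with unadjusted 95% intervals from limma, for the 9 bile acid genes (black) and 4 other genes of the pathway (grey) that are shown because their unadjusted p was under 0.05. The intervals of Cyp8b1 (0.10 to 0.85) and Akr1d1 (-1.32 to -0.03) leave out 0 before adjustment, and that of Cyp7a1 is the widest of the 9 (-0.90 to 1.02). No gene shown passed the adjustment for all genes.

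Levels per kilobase gave an order of the 9 genes that was firm in some places and loose in others. Averaged over the 10 livers, Slc27a5 was highest at 398 ± 50.1 FPKM (SD, n = 10), followed by Cyp27a1 at 314 ± 39.3 and Cyp8b1 at 297 ± 83.2. Next came Slc10a1 at 236 ± 49.8, Cyp7b1 at 136 ± 40.2, Baat at 122 ± 21.1, Abcb11 at 86.8 ± 7.25 and Cyp7a1 at 67.9 ± 33.1 FPKM, and Akr1d1 was last at 27.4 ± 11.1. Slc27a5 was above Cyp27a1 in 10 of 10 livers, and Slc10a1 above Cyp7b1 in 10 of 10. The place of Cyp8b1 was not the same in the 2 genotypes: Cyp27a1 was above it in 5 of 5 controls and in 2 of 5 ASK1+hep livers, and it was above Slc10a1 in 2 of 5 controls and in 5 of 5 ASK1+hep livers. This difference between the genotypes in order was not tested. Abcb11 was above Cyp7a1 in 4 of 5 controls and 3 of 5 ASK1+hep livers, and Cyp7b1 above Baat in 4 of 5 and 2 of 5, so the levels of these neighbours overlapped in both genotypes. The ratio between 2 genes within a liver was also read, since it does not depend on how a library was scaled. The ratio of the Cyp8b1 to the Cyp7a1 level was 3.60, 6.25, 2.41, 3.61 and 6.37 in ASK1f/f replicates 1 to 5. In ASK1+hep replicates 1 to 5 it was 3.21, 3.23, 21.4, 8.26 and 2.88, so replicates 3 and 4 lay above every control and the other 3 within the control range.

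ASK1+hep replicate 3 was the highest or the lowest of the 10 livers in 7 of the 9 genes, the highest for Cyp8b1 and the lowest for Cyp7a1, Cyp7b1, Cyp27a1, Baat, Akr1d1 and Slc10a1. At the other end, ASK1f/f replicate 3 was the highest in 6 of the 9: Cyp7a1, Cyp7b1, Baat, Slc27a5, Akr1d1 and Slc10a1. Whether the high mitochondrial share of ASK1+hep replicate 3 has a part in its values was not tested.

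**Figure D3:**
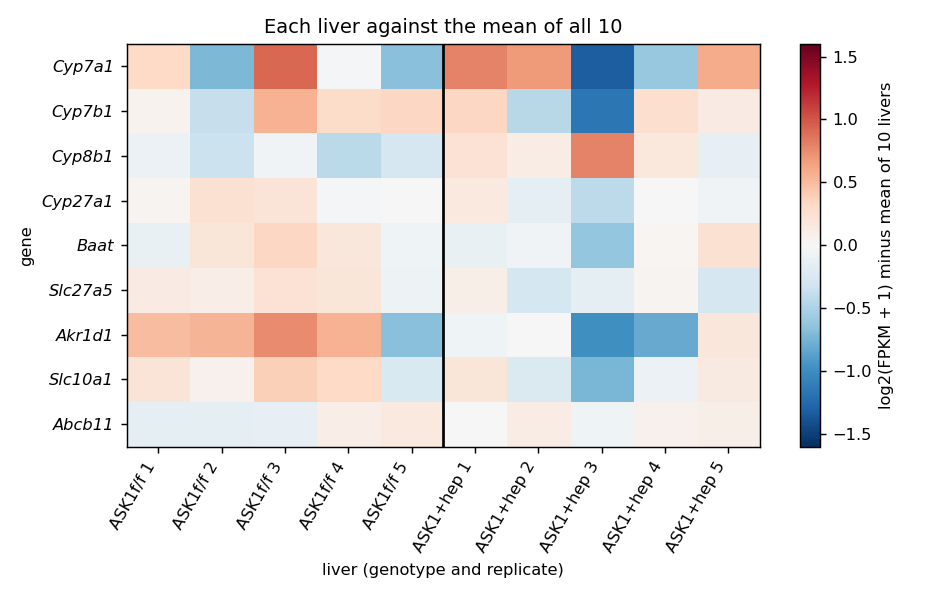
Deviation of each liver from the mean of all 10 on log2(FPKM + 1), with the 9 genes as lines from top to bottom and ASK1f/f replicates 1 to 5 left and ASK1+hep replicates 1 to 5 right of the black line, red above and blue below the mean. ASK1+hep replicate 3 is blue for 6 of the genes for which it is the lowest liver and red for Cyp8b1, and ASK1f/f replicate 3 is red for the 6 genes for which it is the highest.

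Across the 10 livers, of the 36 pairs of genes 24 had a positive and 12 a negative Pearson correlation of log2(FPKM + 1), with a median r of 0.407. All 12 negative values were with Cyp8b1 or Abcb11. With levels scaled by all reads of a library, 8 were negative, all with Cyp8b1, and the 4 pairs of Abcb11 with Cyp27a1, Slc27a5, Akr1d1 and Slc10a1 turned from between -0.525 and -0.206 to between 0.0293 and 0.340. By r, 14 pairs passed Benjamini-Hochberg adjustment with that scaling, and 1 at the deposited scaling among the livers with titles beginning with CC. Over all 10 livers at the deposited scaling, none of the 36 passed this adjustment, by r or by Spearman's rho. The closest was Akr1d1 with Slc10a1 (r = 0.835, permutation p = 0.00172, adjusted permutation p = 0.0619; rho = 0.830, permutation p = 0.00484, adjusted permutation p = 0.154; n = 10). It was 0.787 without the 2 livers farthest from the median of Akr1d1, 0.770 without ASK1+hep replicate 3, and 0.787 on deviations from the genotype means. The most negative pair, Cyp8b1 with Baat, rested on 1 liver: r was -0.798 (permutation p = 0.0115, adjusted permutation p = 0.083; rho = -0.503, permutation p = 0.144, adjusted permutation p = 0.347; n = 10) and -0.446 without ASK1+hep replicate 3. Without the 2 livers farthest from the median of Cyp8b1 it was -0.385. Cyp7a1 and Cyp8b1, both targets of the same feedback in textbook accounts, had an r of -0.247 over all 10 livers (permutation p = 0.512, adjusted permutation p = 0.615; rho = 0.152, permutation p = 0.682, adjusted permutation p = 0.744), which turned to 0.453 without ASK1+hep replicate 3 and to 0.314 without the 2 livers farthest from the median of Cyp7a1.

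**Figure D4:**
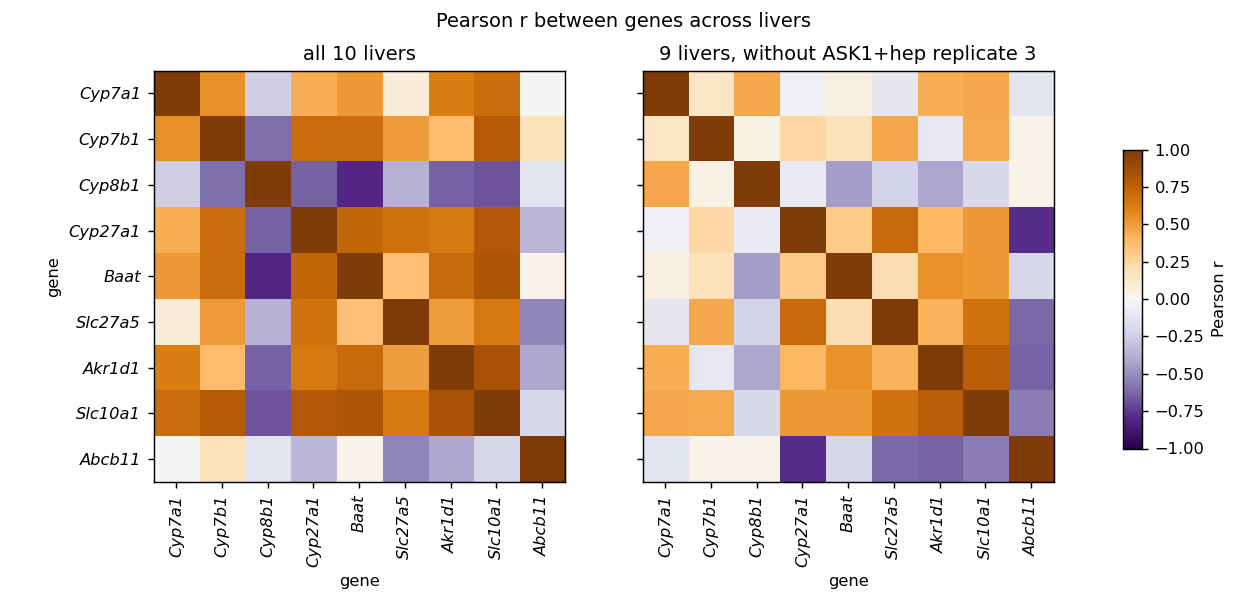
Pearson r between the 9 genes over all 10 livers (left) and over the 9 livers without ASK1+hep replicate 3 (right), on log2(FPKM + 1), from purple at -1 to orange at 1. The purple line of Cyp8b1 at left, down to -0.798 with Baat, is mostly paler at right, where that pair is at -0.446, while Akr1d1 with Slc10a1 is at 0.835 and 0.770.

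The rest of the pathway was read from lists of 12 other synthesis enzymes, 15 other transporters of bile constituents and 20 regulators, 47 genes of which 41 passed the filter. No gene of these lists was called after adjustment. At an unadjusted p under 0.05 there were 4 of the 41, 2 higher and 2 lower in ASK1+hep, beside the 5.77% of all genes. These lists, too, were chosen with earlier results of these data known. The median log2 fold change was -0.05 over the enzymes, -0.03 over the transporters and -0.02 over the regulators, close to that of all genes.

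Among the enzymes, 10 of 12 passed the filter and 1 had an unadjusted p under 0.05. This was Cyp2c70 (ENSMUSG00000060613), which makes the muricholic acids of mice. It was at 218, 217, 228, 290 and 148 FPKM in the 5 ASK1f/f livers (replicates 1 to 5) and at 211, 84.2, 98.8, 188 and 109 FPKM in ASK1+hep replicates 1 to 5. All 5 ASK1+hep livers were below the control median and 2 of them above the lowest control. The log2 fold change was -0.73 with a standard error of 0.27 (limma, unadjusted p = 0.0185, adjusted p = 0.813), and it was -0.64 without ASK1+hep replicate 3 and -0.58 without ASK1+hep replicate 2 (limma, unadjusted p = 0.0516). Hsd3b7, the dehydrogenase after the 7-alpha-hydroxylation step, was listed at only 0.0489 to 0.288 FPKM, from 2 to 11 reads per liver, and did not pass the filter. The gene Gm49388, which overlaps Hsd3b7 on the same strand, was at 0.0148 FPKM at most. How reads shared by both genes were counted is not given in the sources used here. These low values may therefore not show the level of Hsd3b7, which was not tested.

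Transporters were represented by 13 genes past the filter, and 1 had an unadjusted p under 0.05. Abcb4 (ENSMUSG00000042476), the floppase that delivers phosphatidylcholine into bile, was at 25.4, 25.7, 28.6, 26.6 and 31.4 FPKM in ASK1f/f replicates 1 to 5. In ASK1+hep replicates 1 to 5 it was at 39.3, 41.1, 40.6, 31.2 and 40.4 FPKM. In ASK1+hep, 4 livers lay above every control, and the remaining liver, replicate 4, was just below the highest control, the library labelled ASK1f/f replicate 5. The log2 fold change was 0.47 with a standard error of 0.11 and a 95% interval from 0.23 to 0.70 (limma, unadjusted p = 0.00105, adjusted p = 0.715; exact two-sided permutation p = 0.0159). It was 0.45 without ASK1+hep replicate 3. A processed pseudogene, Gm17936, lies within Abcb4 on the same strand. Slco1b2, an uptake carrier of unconjugated bile acids, was at 147 to 244 FPKM in the controls and at 95.4 to 284 FPKM in ASK1+hep, a log2 fold change of -0.12 with a standard error of 0.26. Abcc3, a basolateral exporter, was at 28.8 to 40.1 and 32.3 to 46.3 FPKM, a log2 fold change of 0.12 with a standard error of 0.13. Slc51b, a subunit of the other basolateral exporter, was at 0.448 FPKM at most and did not pass the filter.

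Of the 18 regulators past the filter, 2 had an unadjusted p under 0.05, 1 in each direction. Nr0b2 (ENSMUSG00000037583), which encodes SHP, the repressor that FXR induces, was at 14.4, 19.8, 11.5, 17.3 and 32.5 FPKM in ASK1f/f replicates 1 to 5. It was at 27.3, 30.5, 56.6, 51.1 and 38.4 FPKM in ASK1+hep replicates 1 to 5. All 5 ASK1+hep livers were above the control median, and the groups overlapped through the library labelled ASK1f/f replicate 5 alone, which was above 2 of them. Its means were 19.1 ± 8.13 and 40.8 ± 12.8 FPKM (SD, n = 5 each), a ratio of 2.13. The log2 fold change was 1.08 with a standard error of 0.27 and a 95% interval from 0.50 to 1.67 (limma, unadjusted p = 0.00176, adjusted p = 0.715; exact two-sided permutation p = 0.0238). Without ASK1+hep replicate 3, the highest of the 10, it was 0.95, and without the library labelled ASK1f/f replicate 5 it was 1.29 (limma, adjusted p = 0.186, the lowest in a range of 0.186 to 0.918 over all alternatives for this gene).

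Onecut1 (ENSMUSG00000043013), the transcription factor HNF6, was at 4.11, 1.51, 1.45, 2.57 and 1.25 FPKM in ASK1f/f replicates 1 to 5. The values in ASK1+hep replicates 1 to 5 were 1.23, 0.433, 1.62, 0.988 and 0.424 FPKM. In ASK1+hep, 4 livers lay below every control, and ASK1+hep replicate 3 was above 3 of the controls. The log2 fold change was -0.68 with a standard error of 0.24 (limma, unadjusted p = 0.0156, adjusted p = 0.813), from 23 to 282 reads per liver. At these low levels the constant of 1 FPKM shrinks the value: the ratio of the means was 0.431, and the log2 fold change was -1.15 with a constant of 0.1 FPKM, -1.24 with limma-voom and -1.40 when limma-voom also weighted the libraries by quality (limma, adjusted p from 0.382 to 0.918 over all alternatives). A long non-coding RNA gene, Gm20649, lies within its span on the same strand.

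The sensor and the receptors of the feedback loop gave small differences. Nr1h4, which encodes the bile acid sensor FXR, was at 65.1 ± 8.40 and 68.5 ± 8.61 FPKM (SD, n = 5 each), a log2 fold change of 0.07 with a standard error of 0.12. Fgfr4, the hepatic receptor for FGF15, was at 9.70 ± 2.05 and 8.92 ± 2.15 FPKM (SD, n = 5 each), a log2 fold change of -0.12 with a standard error of 0.17. Its co-receptor Klb was at 3.75 ± 0.968 and 3.93 ± 1.09 FPKM (SD, n = 5 each), a log2 fold change of 0.05 with a standard error of 0.18. None of the 3 had an unadjusted p under 0.05, and their 95% intervals reached from -0.20 to 0.35, from -0.49 to 0.25 and from -0.34 to 0.44.

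**Figure D5:**
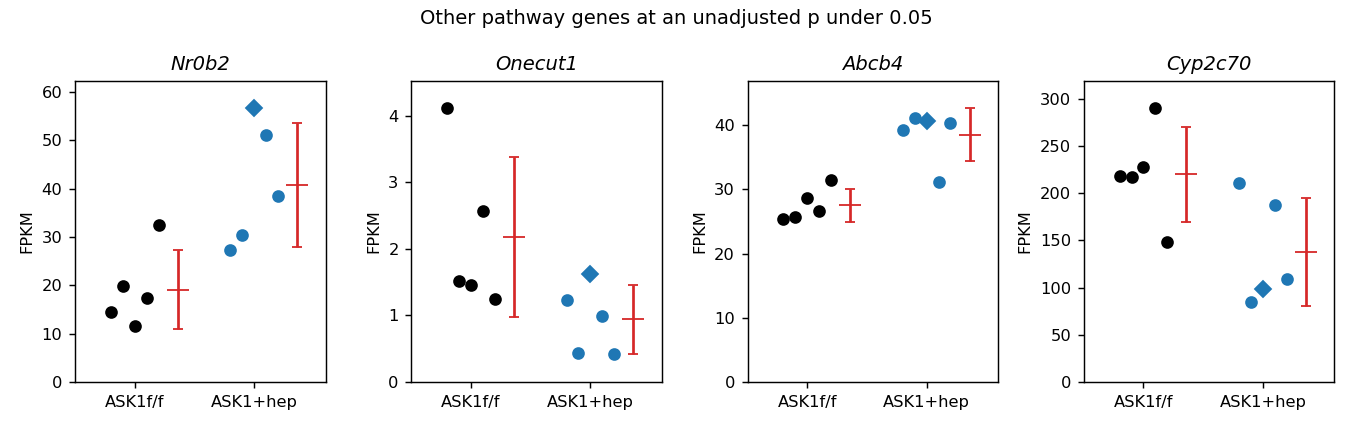
FPKM (vertical axes, from 0) of Nr0b2, Onecut1, Abcb4 and Cyp2c70 in the 5 ASK1f/f (black) and 5 ASK1+hep (blue) livers, 1 point per liver, with ASK1+hep replicate 3 as a diamond and the group mean ± SD in red. Nr0b2 lies at 11.5 to 32.5 FPKM in ASK1f/f and 27.3 to 56.6 in ASK1+hep, and Abcb4 at 25.4 to 31.4 and 31.2 to 41.1, each with a narrow overlap of the groups.

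Markers of other liver cells were read beside these results, since cholangiocytes also carry bile acid transporters. Cholangiocyte markers, 6 of 7 past the filter, summed to between 13.7 and 33.0 FPKM in the controls and to between 15.7 and 28.4 FPKM in ASK1+hep, most of it from Spp1. Their defining genes were low, with Krt7 at 0.198 FPKM at most and Krt19 at 1.12 FPKM at most, and Cftr was at 0.0245 FPKM at most. Among them Pkhd1, at 0.0913 to 0.459 FPKM, had a log2 fold change of -0.16 (limma, unadjusted p = 0.0241). Macrophage markers summed to between 120 and 184 FPKM in the controls and to between 75.7 and 184 FPKM in ASK1+hep, with a lower mean log2 level in ASK1+hep for 6 of 6 and no unadjusted p under 0.05. Summed endothelial markers ran from 27.2 to 41.1 and from 22.6 to 40.8 FPKM, stellate markers from 19.3 to 29.6 and from 15.5 to 28.7 FPKM, and lymphocyte markers from 1.66 to 2.69 and from 1.04 to 3.83 FPKM. Past the filter, 5 of 6 endothelial, 4 of 6 stellate and 4 of 6 cholangiocyte markers were also lower in ASK1+hep. The 2 lymphocyte markers past the filter were higher, and 6887 of all 13261 genes tested were lower. No marker was at 0 in every liver, and the part of these cell types in the values of the bile acid genes was not tested.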

How the data were processed

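Poly-A RNA from 10 livers was sequenced and, per the study's methods, the authors removed adapters and low-quality reads (fastp is named in the submitters' processing notes), mapped reads with Hisat2, counted them per gene with FeatureCounts and deposited FPKM values. The genome build, strandedness and tool versions are not given in the sources used here. Of the 54409 genes found in GENCODE M21, 98.3% had its GRCm38 coordinates. Multiplied by gene length, 100% of FPKM values were whole multiples of 1 read per library within 0.01 reads, which gave the reads behind each value. Groups were taken from the library names. The test used limma 3.58.1 in R 4.3.3 with a mean-variance trend on log2(FPKM + 1), 5 against 5 livers without covariates. Genes needed 10 reads, scaled to the median library, in 5 livers and 15 in total. Single genes were also tested by exact two-sided permutation over 252 arrangements of the livers (smallest p 0.00794), and correlations with 100000 permutations (scipy 1.17.1). The limma test and the correlations were also run on simulated data, and the exact permutation test was not. All 9 genes are named, as are pathway genes at an unadjusted p under 0.05 and Nr1h4, Fgfr4, Klb, Hsd3b7, Slco1b2, Slc51b and Abcc3 whatever their values. The members and lists were chosen with earlier results of these data known. Alternatives (filter, pseudocount, limma-voom, scaling, replicate block, title prefix, each liver left out) were run. Figures were drawn with matplotlib 3.10.9.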

Additional observations from a re-analysis of the deposited data

Results flagged for a closer look

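Within each group of 5 livers, values were screened for a liver far from the other 4, by its gap to the nearest of them over the range of the group, with a limit of 0.71. The screen covered 44 groups of 22 genes (the bile acid genes, the other pathway genes given values, Map3k5 and Fgf21), and chance exceeds the limit in about 1 in 20 groups. It picked out 4 values. Akr1d1 in the library labelled ASK1f/f replicate 5 was at 15.5 FPKM, below the other 4 controls (gap over range 0.733). Map3k5 in the same library was at 19.8 FPKM, above the other 4 controls (0.856). Abcb4 in ASK1+hep replicate 4 was at 31.2 FPKM, below the other 4 ASK1+hep livers (0.818). Abcc3 in ASK1f/f replicate 3 was at 28.8 FPKM, below the other 4 controls (0.75).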

How the results depend on the processing

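No bile acid or other pathway gene had an adjusted p at or below 0.05 under any of the 19 alternatives, 10 of which left out 1 liver. Bile acid genes at an unadjusted p under 0.05 numbered 2 as reported, 1 without the filter on low values, 1 under the replicate block and 1 among the livers with titles beginning with CC alone, 3 with scaling by all reads (Slc27a5 added), and 1 to 2 with a liver left out. Cyp8b1 was at an unadjusted p under 0.05 in all 19 alternatives and Akr1d1 in 10. The sign of Cyp7a1 changed with scaling by all reads (-0.014) and among the CC livers (-0.0416), and its log2 fold change ran from -0.13 to 0.40 with a liver left out. The difference of Abcb11 all but vanished with scaling by all reads (-8.17e-06). That scaling took the median of all genes from -0.0065 to -0.0525 and the share of higher among unadjusted calls from 52.9% to 31.5%. Pairs of genes with an adjusted permutation p at or below 0.05 numbered 0 as reported, 14 with scaling by all reads and 1 among the CC livers. Scaling by all reads divides by the reads on genes in place of the size implied by the deposited values. The implied size over those reads was 1.0625, 0.9808, 1.0312, 1.0561 and 1.0529 in ASK1f/f replicates 1 to 5. In ASK1+hep replicates 1 to 5 it was 1.055, 0.9672, 0.89, 0.9779 and 1.0213. These scalings differ by this ratio alone. Why the ratio varies between libraries was not tested, nor was the cause of the other shifts. Leaving out ASK1+hep replicate 3 for the correlations was chosen after seeing the data and gave 0 pairs. The labels do not say that replicate numbers pair the mice, although the titles of same-numbered livers carry neighbouring numbers in 4 of 5 cases. Same-numbered livers deviated together weakly (r from 0.022 to 0.174, mean 0.108, against a mean of -0.0277 for other numbers), and 6 of 10 livers correlated best with their own number. Not every r was over 0.1, so the block was left out of the reported test. The replicate block gave 874 genes at an unadjusted p under 0.05 against 765. Over all genes, limma-voom with quality weights called 1 gene after adjustment, as did leaving out ASK1+hep replicate 5, which also raised the unadjusted calls to 1717. The wide interval of Cyp7a1 goes with a 4.88-fold spread between livers, each resting on 1353 to 7484 reads.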

Other observations

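The 3 genes outside the pathway whose levels ran most like those of Cyp7a1 over the 10 livers, by Pearson r of log2(FPKM + 1), were Zfp820 (r = 0.962, mean 0.357 FPKM), Acot12 (r = 0.947, mean 31.6 FPKM) and Sult1d1 (r = 0.927, mean 42.1 FPKM). They are the top of all genes past the filter by this measure, given as a description with no test, and the livers share their library and scaling with Cyp7a1. The ratio of the Cyp7b1 to the Cyp7a1 level, alternative against classic route, was 1.78, 2.77, 1.66, 2.66 and 4.34 in ASK1f/f replicates 1 to 5 and 1.55, 0.972, 2.44, 3.98 and 1.55 in ASK1+hep replicates 1 to 5.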
